A study of Mus musculus with 17 samples.

Results

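The 38 genes described here make up a fixed list of glucose transporters, glycolytic enzymes and hypoxia-inducible genes, and were found on the arrays through the gene identifiers of the platform's annotation. Of the 38, 36 had a probe set assigned to that gene alone, out of 18195 genes measured in this way in the whole series, and Gpi1 and Eno1 were not analysed here. Where several probe sets measured a gene, the brightest on average over the 17 arrays was taken, and a level below is the log2 of the intensity deposited by the authors, so that a difference of 1 is a doubling. The members were listed by function, but with earlier results of these data known.

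In glycolysis, glucose enters the cell through facilitative transporters, is phosphorylated by a hexokinase, and is split and oxidised to pyruvate, which lactate dehydrogenase can reduce to lactate. Hypoxia-inducible factor, a dimer of an oxygen-labile subunit such as Hif1a with Arnt, is destroyed in the presence of oxygen after prolyl hydroxylases (Egln1, Egln3) have marked it, and binds the sequences ACGTG and GCGTG in the control regions of most genes on this list when it is stable. Activated T cells take up glucose and secrete lactate even where oxygen is plentiful, and stimulation through the antigen receptor raises Hif1a and Myc. Retinoic acid (RA), a vitamin A metabolite made by intestinal dendritic cells, acts through nuclear receptors and, with transforming growth factor beta (TGFbeta), favours the Foxp3-expressing state of regulatory T cells.

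The series compared mouse CD4 T cells from 2 experiments on 17 arrays in 8 groups, each array made from cells pooled from 3 male mice of 6 to 10 weeks and from RNA that was amplified in 2 rounds. In the co-culture, splenic CD4 T cells without Foxp3 from C57BL/6-Foxp3/GFP mice, a strain in which green fluorescence marks Foxp3, were kept for 5 days at 10 T cells per dendritic cell with anti-CD3 at 1 ug/ml, TGFbeta at 0.6 ng/ml and interleukin 2 at 5 ng/ml, and were then sorted by that fluorescence into Foxp3+ and Foxp3- cells. The dendritic cells came from the spleen (Sp-DC, 2 arrays of each sort), from the spleen with 100 nM RA added (Sp-DC plus RA, 2 Foxp3+ arrays and 1 Foxp3- array) or from the lamina propria of the gut (LP-DC, 2 arrays of each sort). In the memory experiment, CD44hi CD62L- CD25- memory cells from spleen and lymph nodes of C57BL/6 mice were stimulated for 48 hours with anti-CD3/CD28 beads, 20 U/ml interleukin 2 and 10 ng/ml TGFbeta beside naive cells, at 2 memory cells per naive cell, without RA or with 100 nM RA, and re-sorted by a congenic marker, with 3 arrays of each. All 8 groups thus had TGFbeta, interleukin 2 and a CD3 stimulus, and none was an unstimulated control. The labels say nothing of separate cultures beyond an array number, so the p-values measure the spread between these arrays.

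Arrays were alike in scale, with medians over all probe sets between 5.88 and 5.98. Of the 10 T cell markers listed, 9 were measured and all 9 lay above the array median on every array. The 2 erythroid markers measured, Hba-a1 and Alas2, lay below the median on every array. Foxp3 itself read 3.88 to 4.53 on the 11 co-culture arrays, below the median in both sorts, so that its single probe set does not check the sort, and 7.08 to 9.14 on the memory arrays. The source field of several Foxp3+ arrays reads Foxp3- where the title reads Foxp3+, and groups were taken from the titles, so that a mislabelled sort was not tested. The signal from the 3' end of the Gapdh control exceeded that from its 5' end by 2.09 to 3.51 in the co-culture and by 3.58 to 4.74 in the memory arrays. Arrays of one experiment that carry the same number in the labels deviated together, so that each comparison below is given both without the number (unpaired) and with the number as a block (paired). A gene is called where limma's p, adjusted by Benjamini-Hochberg across every gene tested in that comparison, is under 0.05.

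Because most of these genes are known targets of hypoxia-inducible factor, the letters of their promoters are shown before the values. RefSeq promoter windows (GRCm38.p6, 250 bases before to 50 bases after a start site) existed for 33 of the 36 genes, 49 windows in all. ACGTG or GCGTG on either strand (CACGTG, a palindrome, holds ACGTG on each strand) was found in 81.6% of these windows against 43.8% of all 32851 windows, and 27 of the 33 genes (81.8%) had an ACGTG, against 21.8% of all 27025 genes. The share was the same, 81.8%, among the 22 genes that fell with RA in memory cells (18 with an ACGTG) and the other 11 (9 with one). GCGTG was found in 65.6% of the windows of the genes that fell and in 41.2% of those of the others, a difference that was not tested. The member windows were also richer in CpG, with a median of 24 CpG per window and 65% GC against 7 and 52.7% for all windows, and the part of this in the motif counts was not tested. The stretches below, 5' to 3' on the gene's strand with every such match in capitals, belong to genes whose levels are followed through the results. Aldoc, Bnip3, Ddit4, P4ha2 and Fam162a passed the test in at least 1 comparison, and Ldha and Pgk1 passed in none.
Aldoc (chr11:78322973-78323072, forward strand): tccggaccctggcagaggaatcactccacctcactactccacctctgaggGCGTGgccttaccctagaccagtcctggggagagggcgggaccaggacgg
Bnip3 (chr7:138909507-138909646, reverse strand): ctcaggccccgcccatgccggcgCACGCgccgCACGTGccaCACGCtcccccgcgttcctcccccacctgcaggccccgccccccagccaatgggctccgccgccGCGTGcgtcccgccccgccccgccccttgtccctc
Ddit4 (chr10:59951851-59951970, reverse strand): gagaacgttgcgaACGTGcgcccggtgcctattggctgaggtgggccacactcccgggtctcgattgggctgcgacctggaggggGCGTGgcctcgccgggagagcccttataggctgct
P4ha2 (chr11:54100794-54100893, forward strand): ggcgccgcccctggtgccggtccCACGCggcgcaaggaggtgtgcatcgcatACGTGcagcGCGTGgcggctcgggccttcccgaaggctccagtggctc
Fam162a (chr16:36071562-36071661, reverse strand): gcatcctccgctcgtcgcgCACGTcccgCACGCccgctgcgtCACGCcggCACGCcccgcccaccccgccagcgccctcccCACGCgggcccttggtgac
Ldha (chr7:46845644-46845803, forward strand): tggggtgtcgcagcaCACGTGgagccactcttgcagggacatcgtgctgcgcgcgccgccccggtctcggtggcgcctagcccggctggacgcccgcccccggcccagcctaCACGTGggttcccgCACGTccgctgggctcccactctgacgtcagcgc
Pgk1 (chrX:106186930-106187009, forward strand): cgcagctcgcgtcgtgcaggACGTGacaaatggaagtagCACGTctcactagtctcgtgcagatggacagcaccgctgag

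These stretches differ in how many matches they hold, from a single GCGTG in Aldoc to 5 ACGTG matches, counted over both strands, in Ldha. A match is a description of the letters, not a shown binding site.

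The genes were well expressed in these cells. Of the 36, 32 lay above the array median on all 17 arrays, and the exceptions were Slc16a3, the lactate exporter (above it on 2 arrays), Car9, a cell-surface carbonic anhydrase (13 arrays), and the collagen prolyl hydroxylase subunits P4ha1 (15) and P4ha2 (14). The mean over the 35 genes tested in both experiments was 11.30 to 11.64 on the 4 Sp-DC arrays, 11.17 to 11.59 on the 3 Sp-DC plus RA arrays and 10.57 to 11.07 on the 4 LP-DC arrays. It was 10.14, 10.20 and 10.55 on the memory arrays without RA and 9.37, 9.30 and 9.74 on those with RA, so that the memory arrays with RA were the lowest of all. For some of these genes, among them Slc2a3, Aldoc, Pdk1, Bnip3, Ndrg1 and Ddit4, every co-culture array lay above every memory array. The share of all genes that do so was not counted, so this is not a trait of the list. The summed T cell markers also separated, at 18187 to 23135 on co-culture arrays and 8674 to 11273 on memory arrays. The experiments differ in starting cells, stimulus, time and TGFbeta dose, so no cause can be assigned and this was not tested.

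**Figure D1:**
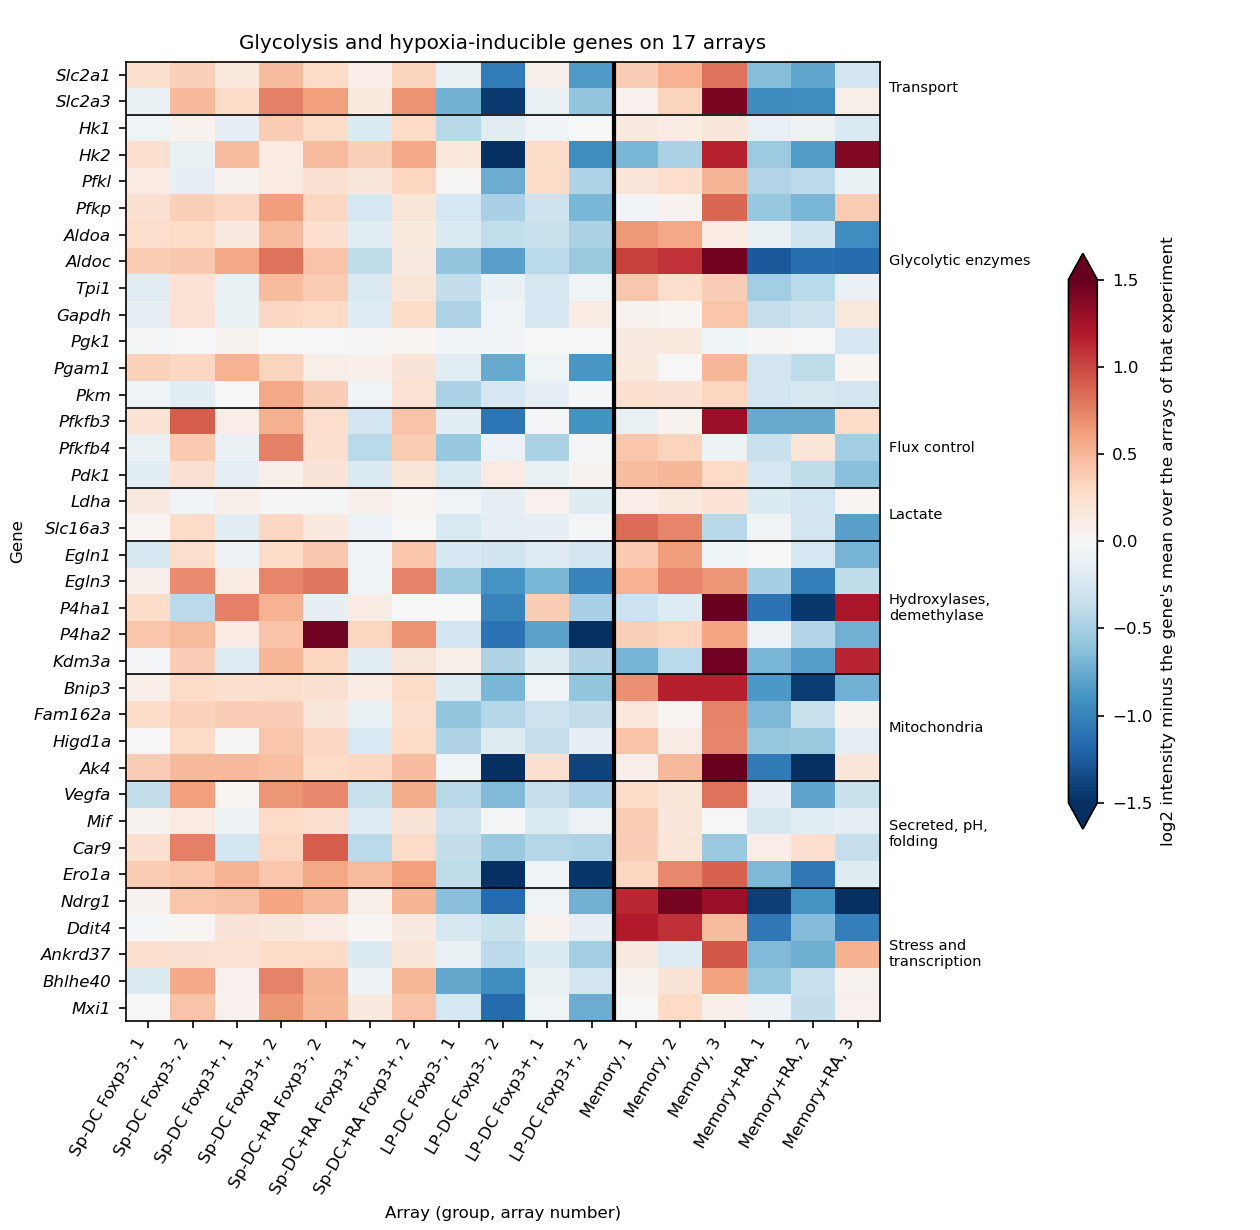
Log2 intensity of the 36 measured genes (rows, grouped by role) on the 17 arrays (columns, with group and array number), as the difference from the gene's mean over the 11 co-culture arrays (left of the black line) or the 6 memory arrays (right of it), with colours saturating at 1.5 in either direction. The LP-DC arrays numbered 2 and the memory arrays with RA numbered 1 and 2 are the bluest columns, and Hk2, P4ha1 and Kdm3a are high on both memory arrays numbered 3.

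RA in memory cells was the comparison in which most of the genes moved. In the paired fit 25 of the 36 genes fell and none rose, against 2.45% of all 12163 genes tested falling and 2.7% rising. Slc16a3, P4ha1 and P4ha2, 3 of the 25, exceeded the array median on at most 1 array with RA and so entered the test through the group where they are high. Among genes above the median on 2 or more arrays with RA, a setting chosen after seeing the data, 22 of 33 fell, against 2.15% of all 11309. In the unpaired fit Ndrg1 and Aldoc fell, against 0.0493% of all genes. There 17 of the 36 had an unadjusted p under 0.05, against 504 of all 12163 genes. The median difference over the 36 genes was -0.67 in both fits, against 0.00 over all genes, and 35 of the 36 differences were below 0. For 18 of the 36 the 3 arrays with RA all lay below the 3 without, against 3.59% of all genes. Within each array number, 34, 35 and 34 of the 36 were lower with RA, with medians of -0.69, -0.71 and -0.61.

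Of the 5 regulators of stress and transcription, 4 fell in the paired fit. Ndrg1, a hypoxia- and stress-induced gene, read 10.06, 10.36 and 10.22 on arrays 1, 2 and 3 without RA and 7.52, 8.04 and 7.37 with it. The groups were far apart, and the difference was -2.57 ± 0.14 (SE, n = 3 and 3 arrays; 5.96-fold lower; adjusted p = 2.13e-05 paired, 0.0256 unpaired with an SE of 0.23). The size depended on the probe set, since the 4 other probe sets of Ndrg1 gave -2.70, -1.30, -0.57 and -0.24. Ddit4, which encodes an inhibitor of mTOR complex 1 and has both motifs in the stretch printed above, read 12.75, 12.66 and 12.04 without RA and 10.49, 10.91 and 10.54 with it. Its groups did not overlap, and it fell by 1.83 ± 0.16 (adjusted p = 0.000267 paired, 0.0925 unpaired). Among the other regulators of stress and transcription, Bhlhe40, a basic helix-loop-helix repressor (-0.56, adjusted p = 0.033), and Ankrd37 (-0.58, 0.0425) fell in the paired fit, while the Myc antagonist Mxi1 gave -0.25 ± 0.16 and an adjusted p of 0.517.

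All 4 members placed with the mitochondria fell in the paired fit. Bnip3, a mitochondrial outer membrane protein that recruits autophagosomes, read 12.06, 12.54 and 12.54 without RA and 10.52, 9.95 and 10.66 with it. No array with RA reached those without, and the difference was -2.01 ± 0.19 (4.02-fold lower; adjusted p = 0.00039 paired, 0.0863 unpaired). Ak4, a mitochondrial adenylate kinase, read 7.71, 8.12 and 9.54 without RA and 6.58, 6.06 and 7.82 with it. Its groups overlapped because both arrays numbered 3 were high, but each array with RA lay below its same-numbered partner, and the difference was -1.63 ± 0.18 (adjusted p = 0.000811 paired, 1.00 unpaired). The other probe sets of Ak4 gave -1.26, -0.33, -0.23 and -0.10. Higd1a, a respiratory supercomplex factor induced by hypoxia (-0.84, adjusted p = 0.00567), and Fam162a (-0.63, 0.0321) fell less.

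Both glucose transporters fell. Slc2a1, the basal glucose transporter, read 10.67, 10.83 and 11.12 without RA and 9.66, 9.52 and 10.02 with it. No array with RA reached any array without, and the difference was -1.14 ± 0.13 (2.20-fold lower; adjusted p = 0.00108 paired, 0.207 unpaired). Slc2a3, a high-affinity transporter, read 9.16, 9.43 and 10.51 without RA and 8.15, 8.17 and 9.17 with it, with the arrays numbered 3 the highest of each group. It fell by 1.21 ± 0.13 (adjusted p = 0.000822 paired, 0.975 unpaired).

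Of the 11 glycolytic enzymes measured, 6 fell and 5 did not pass in the paired fit, with a median of -0.53. Aldoc, the aldolase isoform best known from brain, read 8.36, 8.42 and 8.78 without RA and 6.07, 6.20 and 6.18 with it. That is a difference of -2.37 ± 0.14 (5.16-fold lower; adjusted p = 2.22e-05 paired, 0.0162 unpaired), with the arrays of each group close together. The other, dimmer probe set of Aldoc gave -1.41. The main aldolase Aldoa (-0.89, adjusted p = 0.00373), the phosphofructokinase subunits Pfkl (-0.63, 0.0185) and Pfkp (-0.58, 0.0332), the triose phosphate isomerase Tpi1 (-0.69, 0.0195) and the pyruvate kinase Pkm (-0.53, 0.0426) fell in the paired fit, with unpaired adjusted p-values from 0.50 to 1.00. Hk2, the inducible hexokinase, read 7.38, 7.59 and 9.22 without RA and 7.52, 7.22 and 9.45 with it. The spread came from the arrays numbered 3, and the difference was 0.00 ± 0.15 (adjusted p = 0.997). The other enzymes gave -0.42 for the phosphoglycerate mutase Pgam1 (adjusted p = 0.102), -0.34 for Gapdh (0.215), -0.28 for the constitutive hexokinase Hk1 (0.337) and -0.15 for the phosphoglycerate kinase Pgk1 (0.666), whose probe set read 14.05 to 14.45 on all 17 arrays against a highest value of any probe set of 14.73, close to the top of the scale. The 2 other probe sets of Pgk1 gave -0.43 and -0.52.

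Genes that direct carbon away from or towards lactate differed. Pdk1, the kinase that shuts pyruvate out of the tricarboxylic acid cycle, read 12.33, 12.37 and 12.17 without RA and 11.61, 11.48 and 11.24 with it. The groups did not overlap, and it fell by 0.85 ± 0.13 (adjusted p = 0.00447 paired, 0.313 unpaired). Pfkfb3, which makes the activator of phosphofructokinase, fell by 0.82 (adjusted p = 0.00635 paired), and its relative Pfkfb4 gave -0.44 ± 0.15 (0.153). Ldha, the muscle-type lactate dehydrogenase subunit, read 13.41, 13.45 and 13.51 without RA and 13.10, 13.02 and 13.35 with it. All 3 arrays with RA were lower, but the difference of -0.30 ± 0.13 did not pass (adjusted p = 0.301). Slc16a3 fell by 0.77 in the paired fit (adjusted p = 0.0188), from 6.33, 6.22 and 5.07 to 5.43, 5.21 and 4.67.

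Of the 5 oxygen-dependent enzymes, 4 fell in the paired fit. Egln3, a prolyl hydroxylase that is itself induced by hypoxia, read 11.54, 11.75 and 11.68 without RA and 10.52, 9.98 and 10.64 with it. The groups were separate, and it fell by 1.28 ± 0.17 (adjusted p = 0.00237 paired, 0.155 unpaired). Egln1 (-0.64, adjusted p = 0.0343), P4ha1 (-0.88, 0.0103) and P4ha2 (-0.84, 0.0221) also fell in the paired fit, while the histone demethylase Kdm3a gave -0.24 ± 0.14 (0.47). Of the members with roles in secretion, pH and protein folding, the endoplasmic reticulum oxidase Ero1a (-1.29 ± 0.17, adjusted p = 0.00263) and the angiogenic factor Vegfa (-0.85, 0.0151) fell, whereas the cytokine Mif gave -0.37 ± 0.14 (0.218) and Car9 gave 0.00 ± 0.14 (0.994).

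**Figure D2:**
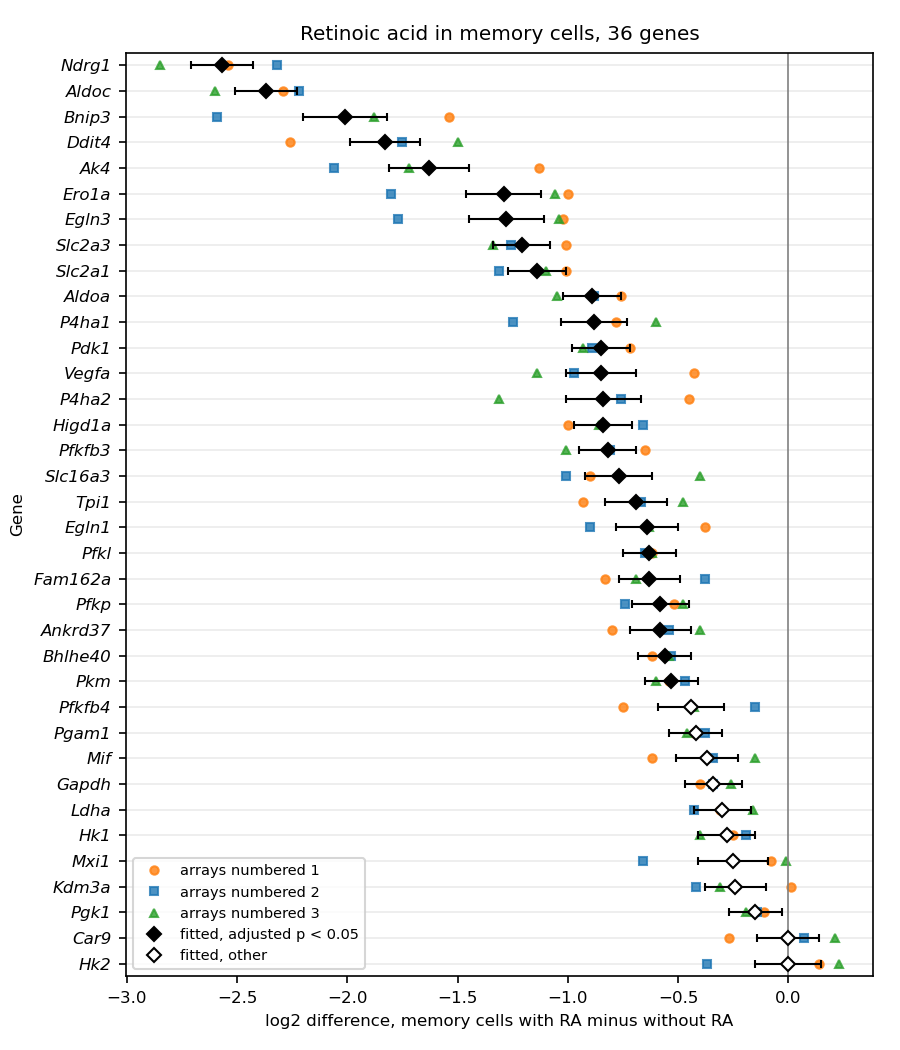
Log2 difference of memory cells with RA minus without RA for the 36 genes, sorted by size. Coloured points are the differences between arrays of the same number, diamonds are the paired fit with its SE (filled where the adjusted p is under 0.05), and the diamonds run from -2.57 for Ndrg1 to 0.00 for Car9 and Hk2.

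How many genes passed depended on the arrays numbered 3, for the list and for all genes alike. Without either of these the paired fit called 10 genes of the list lower, all among the 25. Of all 12163 genes it called 216 in either direction, against 627 with every array. Over the 6 fits that leave out 1 array the count for the list ran from 10 to 24. The 10 that passed in all 6 were Slc2a1, Slc2a3, Aldoc, Slc16a3, Egln3, Bnip3, Ak4, Ero1a, Ndrg1 and Ddit4, of which Slc16a3 has the limit given above. In the paired fit an array whose partner is left out adds nothing. Leaving out either array of a number thus gives the same fit, and the 6 fits are 1 fit per array number, each counted 2 times. The unpaired fit called 11 genes of the list lower with both arrays numbered 3 left out, a setting chosen after seeing the data, and 0 or 1 with a single array left out. Of all genes it called 205 with both left out and 3 to 8 with a single array left out, against 12 with every array. The other probe sets of these genes, 45 probe sets of 23 genes, gave the same direction in 41 cases. Of the 4 that did not, only that of Mxi1 (0.01) counted among the 33 brighter ones.

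Other genes of the same pathways, on lists put together beside the members, are given for comparison. Of 17 other hypoxia-inducible genes tested, 4 fell with RA in the paired fit and none rose, with a median of -0.42. Adm, which encodes the vasodilator peptide adrenomedullin, went from 8.19, 8.66 and 7.68 to 6.45, 6.61 and 6.29 (-1.73, adjusted p = 0.000267). Selenbp1, a selenium-binding protein (-1.71, 0.000212), was below the array median on all 3 arrays with RA and entered the test through arrays without it. Cited2, an inhibitor that competes with Hif1a for its coactivator (-1.12, 0.00569), and Errfi1, a feedback inhibitor of the epidermal growth factor receptor (-1.08, 0.0173), fell as well. Of 12 other glycolysis and glycogen genes, Pgm1 (-1.10, adjusted p = 0.00372) and the glycogen enzymes Gbe1 (-0.95, 0.00523) and Gys1 (-0.66, 0.0308) fell. None of 13 components of the hypoxia-inducible factor pathway passed in either fit (1 at an unadjusted p under 0.05 paired, 0 unpaired). Hif1a read 12.68, 13.01 and 12.67 without RA and 12.78, 12.50 and 12.63 with it, and gave -0.15 ± 0.15 (adjusted p = 0.717). Myc, a driver of glycolytic genes in activated T cells, read 7.57, 7.75 and 9.57 without RA and 7.43, 7.51 and 9.99 with it, and gave 0.02 ± 0.16 (0.977), with both arrays numbered 3 high.

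In sorted bulk cells a lower level cannot be told apart from fewer cells that express the gene. Some markers of other cells also moved with RA in memory cells. The summed intensity of the B cell list was 1106 to 1549 without RA and 1930 to 2925 with it. Ighm (immunoglobulin mu), by far the brightest gene of that list, rose by 1.04 (limma paired adjusted p = 0.00152). Ms4a1 went the other way, from 6.78, 6.93 and 6.23 to 6.51, 6.54 and 5.94. Cd79a read 4.67 to 5.99 and Cd79b 5.09 to 5.90 over the 6 arrays, at or near background. The sum of the CD8 T and NK cell list was 565 to 1019 without RA and 1064 to 1581 with it. Of its 7 genes, 4 were tested. Nkg7 (1.76) and Klrd1 (0.87) were higher with RA, but none of the 4 passed in the unpaired fit. Klrd1 went from 5.35, 4.64 and 7.11 to 5.94, 5.55 and 8.22, above the array median only on the arrays numbered 3. Cd8a went from 8.29, 7.97 and 6.57 to 7.92, 8.03 and 6.69. Gzma went from 7.68, 7.30 and 7.16 to 8.21, 7.07 and 6.74. Cd8b1 and the NK receptor gene Ncr1 read 4.63 to 5.64. The dendritic cell list summed to 717 to 1452 and 734 to 1245. The Gapdh 3' to 5' excess was 4.05, 3.58 and 4.58 without RA and 3.92, 3.67 and 4.74 with it. The part of these in the falls above was not tested.

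**Figure D3:**
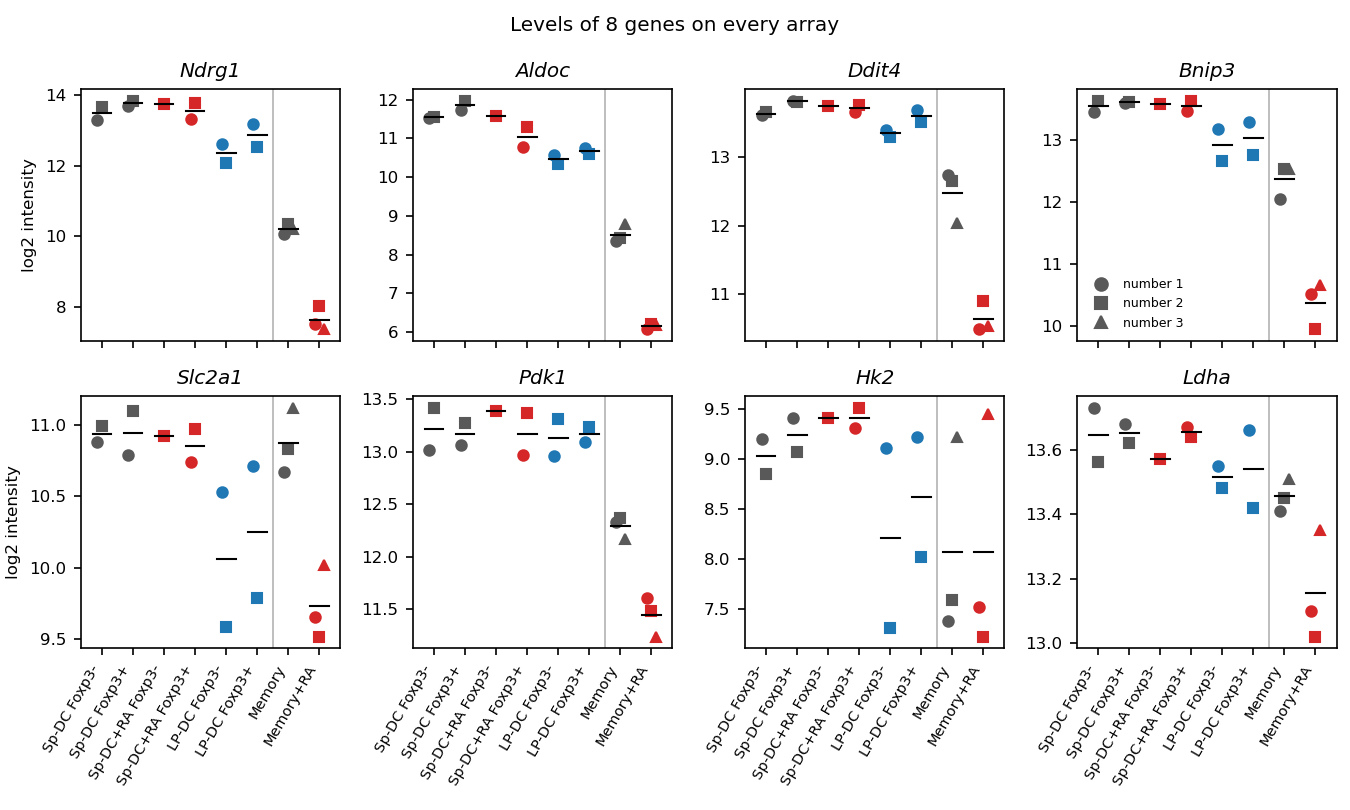
Log2 intensity of 8 genes on every array, by group, with the array number as the symbol (circle 1, square 2, triangle 3), RA groups in red, LP-DC groups in blue, the other groups in grey and the group mean as a bar; each panel has its own axis, which does not start at 0. Ndrg1, Aldoc, Ddit4, Bnip3, Slc2a1 and Pdk1 show no overlap between memory cells with and without RA, Hk2 is high on both memory arrays numbered 3, and Ldha spans only 13.02 to 13.73 over all arrays.

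With the source of the dendritic cells few of these genes passed, but nearly all differences had the same sign. In Foxp3+ cells 4 of the 35 genes tested were lower with LP-DC than with Sp-DC in the paired fit and none was higher, against 0.477% of all 11940 genes. In the unpaired fit 0 passed, as did 0 of all genes. There 12 of the 35 had an unadjusted p under 0.05, against 959 of all 11940 genes. In Foxp3- cells 2 of 35 were lower in the paired fit, against 0.469% of all genes. In the unpaired fit 0 were lower, as were 0 of all genes. No difference was above 0 in either sort, and the medians were -0.61 and -0.62 against 0.01 and 0.00 over all genes. Both LP-DC arrays lay below both Sp-DC arrays for 26 of 35 genes in Foxp3+ cells, against 18.3% of all genes, and for 26 of 35 in Foxp3- cells, against 17.4%. The difference between the sorts in this comparison passed for 0 genes of the list and 0 of all genes in both fits (0 of the list at an unadjusted p under 0.05).

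Aldoc passed in both sorts. In Foxp3+ cells it read 11.74 and 11.98 with Sp-DC and 10.75 and 10.60 with LP-DC, a difference of -1.19 ± 0.18 (SE, n = 2 and 2 arrays; 2.28-fold lower; adjusted p = 0.0268 paired, 0.338 unpaired). In Foxp3- cells it read 11.54 and 11.56 with Sp-DC and 10.58 and 10.34 with LP-DC (-1.09 ± 0.18, adjusted p = 0.0434 paired, 0.49 unpaired). Both pairs of arrays show the fall in both sorts. The other probe set of Aldoc gave -0.72 in Foxp3+ cells and -1.09 in Foxp3- cells. Fam162a, a mitochondrial protein whose promoter stretch above holds several GCGTG matches, passed in both as well, but in none of the 4 fits with 1 array left out in either sort, where Aldoc passed in 2 and 1. It read 11.68 and 11.68 with Sp-DC and 10.98 and 10.95 with LP-DC in Foxp3+ cells (-0.71 ± 0.13, adjusted p = 0.0445 paired, 0.355 unpaired), and 11.58 and 11.65 against 10.71 and 10.88 in Foxp3- cells (-0.82 ± 0.13, 0.0434 paired, 0.49 unpaired).

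P4ha2 and Pfkp passed in Foxp3+ cells and not in Foxp3- cells. P4ha2 read 9.84 and 10.14 with Sp-DC and 8.91 and 8.01 with LP-DC there (-1.53 ± 0.30, 2.88-fold lower, adjusted p = 0.0481 paired, 0.355 unpaired), and in Foxp3- cells 10.13 and 10.19 against 9.42 and 8.60 (-1.15 ± 0.30, 0.0981 paired). Pfkp read 12.12 and 12.43 against 11.50 and 11.12 in Foxp3+ cells (-0.96 ± 0.20, adjusted p = 0.0496 paired, 0.355 unpaired), and gave -0.67 ± 0.20 in Foxp3- cells (0.123 paired). The LP-DC arrays were the lower ones in every case. Among the genes that did not pass, Ero1a (-1.22 and -1.36), Egln3 (-1.27 and -1.10), Ak4 (-1.04 and -1.28) and Slc2a3 (-0.87 and -1.27) gave wide differences, with SEs of 0.29 to 0.45.

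The arrays numbered 2 differed more than those numbered 1. For arrays numbered 1 the median difference over the 35 genes was -0.19 in Foxp3+ cells and -0.37 in Foxp3- cells, with 31 and 33 genes lower. For arrays numbered 2 it was -0.94 and -0.81, with all 35 lower in each. Slc2a1 shows this, reading 10.79 and 11.10 with Sp-DC and 10.71 and 9.79 with LP-DC in Foxp3+ cells (-0.69 ± 0.31, adjusted p = 0.268 paired), and 10.88 and 10.99 against 10.53 and 9.59 in Foxp3- cells (-0.87 ± 0.31, 0.201). Hk2 read 9.41 and 9.07 against 9.22 and 8.02 in Foxp3+ cells (-0.62 ± 0.38, 0.439), and 9.20 and 8.85 against 9.11 and 7.31 in Foxp3- cells (-0.82 ± 0.38, 0.322). The LP-DC array numbered 2 was the lowest of the 4 in each case. Bnip3 read 13.60 and 13.62 against 13.30 and 12.77 in Foxp3+ cells (-0.58 ± 0.20, adjusted p = 0.155), and 13.45 and 13.64 against 13.18 and 12.67 in Foxp3- cells (-0.62 ± 0.20, 0.156). Without the LP-DC Foxp3+ array numbered 2, or without the Sp-DC Foxp3+ array numbered 2, no gene of the list passed the paired test in Foxp3+ cells, and the count over the 4 such fits ran from 0 to 6. In Foxp3- cells Aldoc alone passed without the LP-DC array numbered 1, and none passed without any of the other 3 arrays.

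The differences of Pdk1 and Ldha were at most about the size of their SEs. Pdk1 read 13.06 and 13.27 with Sp-DC and 13.09 and 13.24 with LP-DC in Foxp3+ cells (0.00 ± 0.13, adjusted p = 0.991), and 13.02 and 13.42 against 12.96 and 13.31 in Foxp3- cells (-0.09 ± 0.13, 0.798). Ldha read 13.68 and 13.62 against 13.66 and 13.42 in Foxp3+ cells (-0.11 ± 0.12, 0.72), and 13.73 and 13.56 against 13.55 and 13.48 in Foxp3- cells (-0.13 ± 0.12, 0.652). Another, dimmer probe set of Pdk1 gave -0.84 and -0.76. The chosen probe set of Pgk1 is too close to the top of the scale to show whether it differed, and its 2 other probe sets gave -0.19 and -0.24 in Foxp3+ cells and -0.16 and -0.27 in Foxp3- cells. Among later steps of glycolysis, Pgam1 gave -0.89 and -0.79 and Pkm -0.36 and -0.25, none of which passed. Of the 45 other probe sets, 42 were lower with LP-DC in Foxp3+ cells and 41 in Foxp3- cells, and the probe sets of Ak4 disagreed, with another at -0.98 and -1.15 and 3 others between -0.02 and 0.16.

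**Figure D4:**
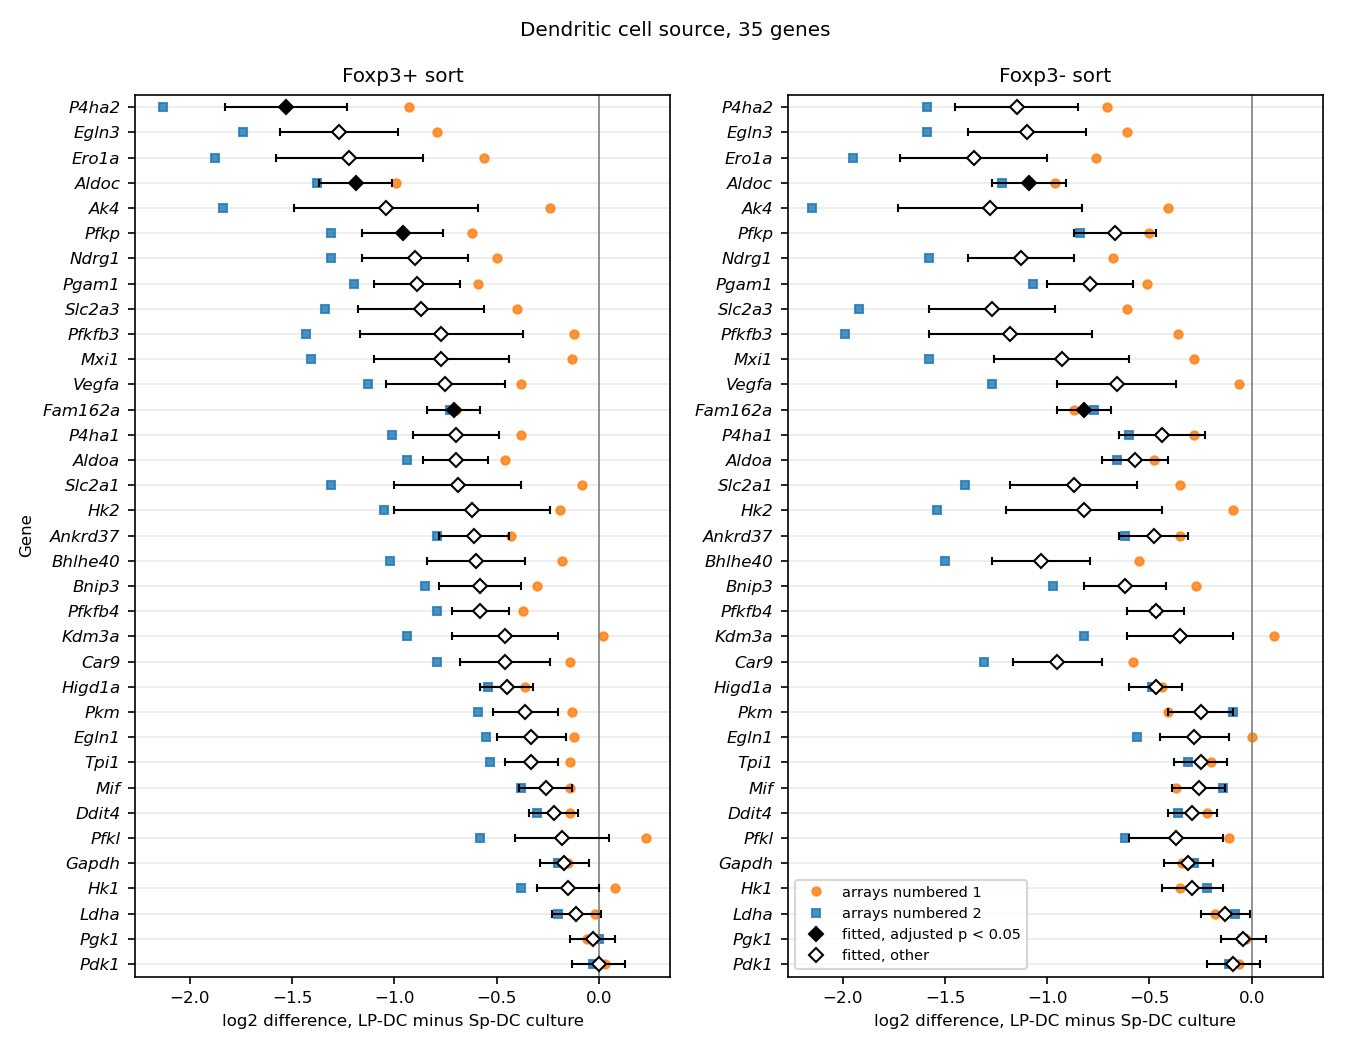
Log2 difference of LP-DC minus Sp-DC cultures for 35 genes in Foxp3+ cells (left) and Foxp3- cells (right), both in the order of the Foxp3+ differences. Points are differences between arrays numbered 1 (circles) and 2 (squares), diamonds the paired fit with its SE, filled where the adjusted p is under 0.05; the squares lie further from 0 than the circles for most genes, with medians of -0.94 against -0.19 on the left and -0.81 against -0.37 on the right.

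LP-DC cultures were also set against the Sp-DC cultures with RA, with the same LP-DC arrays. In Foxp3+ cells P4ha2 fell in the paired fit, the 1 of 35 genes to pass, against 0.745% of all genes falling. It read 10.03 and 10.39 with Sp-DC plus RA and 8.91 and 8.01 with LP-DC (-1.75 ± 0.30, adjusted p = 0.0248 paired). In the unpaired fit 0 genes of the list passed, against 0.0586% of all genes falling. The median was -0.39, made up of -0.05 for arrays numbered 1, with 7 of 35 genes higher, and -0.70 for arrays numbered 2, with all 35 lower. Both LP-DC arrays lay below both others for 21 of 35 genes, against 12.7% of all genes. Without a single array the count ran from 0 to 3 paired, being 0 without the LP-DC array numbered 2 or either array with RA and 3 without the LP-DC array numbered 1, when Egln3 and Ero1a joined P4ha2. Some dendritic cell markers differed between the cultures too. Their list summed to 1509 to 1521 with LP-DC and 1975 to 2548 with Sp-DC in Foxp3+ cells. In Foxp3- cells it summed to 1222 to 1381 and 1752 to 2410. Its brightest gene, the class II gene H2-Ab1, read 9.52 and 9.52 with LP-DC against 10.09 and 10.76 in Foxp3+ cells. In Foxp3- cells H2-Ab1 fell by 1.28 (limma paired adjusted p = 0.0434). Adgre1 was also lower with LP-DC in Foxp3+ cells (7.09 and 6.96 against 7.99 and 7.40). Cd74 (6.68 and 6.78 against 6.04 and 6.42) and H2-Aa (6.34 and 6.40 against 6.31 and 6.23) were not lower there. The dendritic cell gene Itgax read 5.24 to 5.83 on all co-culture arrays, below the array median. In Foxp3+ cells Nkg7 fell by 1.70 with LP-DC (0.0216). The part of these in the differences above was not tested.

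With RA in the co-culture no gene of the list passed. In Foxp3+ cells 0 of the 35 genes passed in either fit (4 at an unadjusted p under 0.05 paired and 2 unpaired), against 1.03% of all genes called paired and 0.101% unpaired. Those 2 stand against 576 of all 11940 genes at an unadjusted p under 0.05 in the unpaired fit. The median difference was -0.11. In the unpaired fit 29 of the 35 differences were below 0 and 6 above, against 6006 of all 11940 genes below 0. Both arrays with RA lay below both without for 7 of 35 genes, against 12.1% of all genes. Aldoc had the lowest difference, from 11.74 and 11.98 without RA to 10.78 and 11.30 with it (-0.82 ± 0.18, adjusted p = 0.0755 paired). Both arrays with RA were below both without, but the fall did not pass. Slc2a1 read 10.74 and 10.97 with RA (-0.09 ± 0.31 against Sp-DC alone), Hk2 9.31 and 9.51 (0.17 ± 0.38), Ldha 13.67 and 13.64 (0.01 ± 0.12), Pdk1 12.97 and 13.37 (0.00 ± 0.13) and Bnip3 13.47 and 13.64 (-0.05 ± 0.20), with adjusted p-values from 0.916 to 0.994. In Foxp3- cells, where RA has a single array whose spread is taken from the other groups, 0 genes passed in either fit (1 at an unadjusted p under 0.05 in each), against 0.268% of all genes paired and 0.00838% unpaired, and the median was 0.13 paired and 0.16 unpaired.

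Whether the RA effect differed between the experiments was tested directly in a fit of all 17 arrays. For 5 of 35 genes the effect in memory cells was lower than in Foxp3+ co-culture cells in the paired fit and for none higher, against 0.624% of all 11537 genes tested in both. They were Ddit4 (-1.73 ± 0.21, adjusted p = 0.00167), Ndrg1 (-2.36 ± 0.32, 0.00296), Aldoc (-1.55 ± 0.23, 0.00464), Bnip3 (-1.95 ± 0.31, 0.00704) and Pdk1 (-0.84 ± 0.16, 0.0227). The 4 other probe sets of Ndrg1 gave -2.50, -0.76, -0.20 and 0.16 for this difference, and the other probe set of Aldoc gave -0.74. Ndrg1, for example, read 13.68 and 13.84 in Foxp3+ cells without RA and 13.33 and 13.76 with it, where memory cells fell by 2.57. In the unpaired fit 0 passed, against 0.026% of all genes, with Ndrg1 at an adjusted p of 0.0597. Without the Sp-DC plus RA Foxp3+ array numbered 2 the paired fit called 3 of the 5, Aldoc, Ndrg1 and Ddit4, and without the memory array numbered 3 the unpaired fit called Ddit4. Slc2a1 (-1.05), Slc2a3 (-1.09), Egln3 (-1.20) and Ero1a (-1.36) had large differences that did not pass. The experiments also differ in cells, stimulus, time and TGFbeta dose, which cannot be told apart from the cell type here. Levels differ as well, and Sp-DC Foxp3+ arrays read 13.68 and 13.84 for Ndrg1, 13.83 and 13.81 for Ddit4 and 13.60 and 13.62 for Bnip3. These lie high on a scale whose highest value is 14.73, and the part of this in the smaller co-culture effects was not tested.

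**Figure D5:**
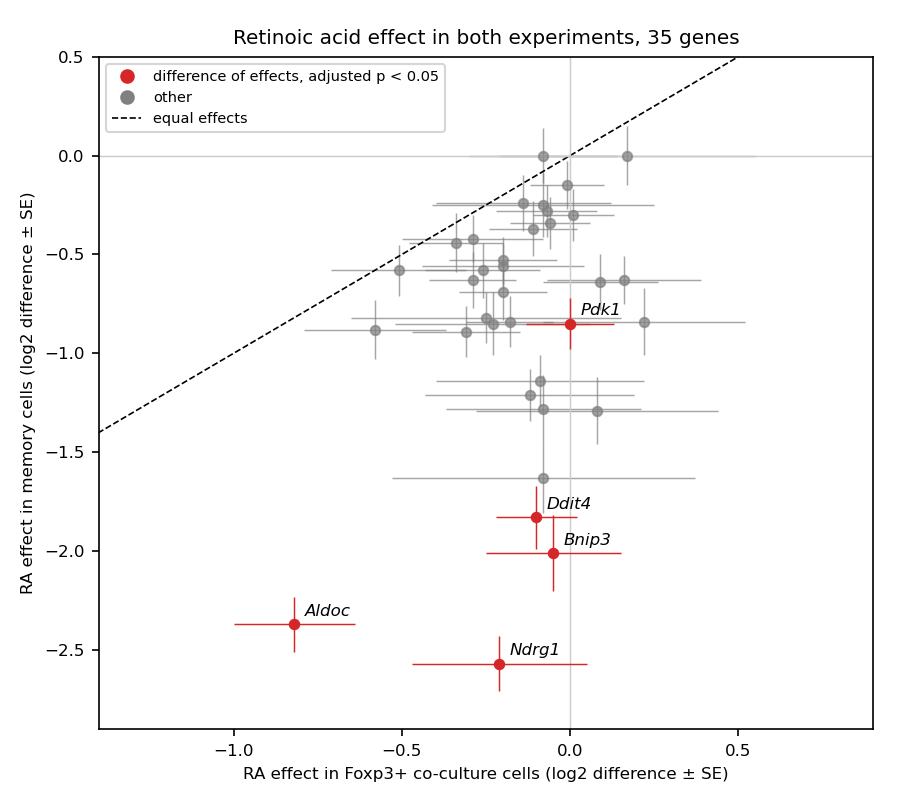
RA effect (log2 difference ± SE, paired fit of each experiment) of 35 genes in memory cells (vertical axis) against Foxp3+ co-culture cells (horizontal axis), with a dashed line where both effects are equal. The 5 genes whose effects differ at an adjusted p under 0.05 are red and named, and lie below the line: Ndrg1, Aldoc, Bnip3, Ddit4 and Pdk1.

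Between Foxp3+ and Foxp3- cells of the same cultures no gene of the list passed. Averaged over the 3 cultures, 0 of 35 genes passed in either fit (3 at an unadjusted p under 0.05 paired, 2 unpaired), against 4.75% of all genes called paired and 0.896% unpaired. Those 2 stand against 946 of all 11940 genes at an unadjusted p under 0.05 in the unpaired fit. The median difference was 0.01 paired and 0.03 unpaired, from -0.59 ± 0.19 for P4ha2 (adjusted p = 0.152) to 0.35 ± 0.13 for P4ha1 (0.243) in the paired fit. These 2 genes encode alternative catalytic subunits of the same collagen prolyl hydroxylase. P4ha1 read 8.81 and 8.58 in Foxp3+ cells and 8.33 and 7.66 in Foxp3- cells with Sp-DC. Without the LP-DC Foxp3- array numbered 2, Car9 passed as lower in Foxp3+ cells. No gene of the list passed within a single culture, against 0.586% of all genes called paired and 0 unpaired with Sp-DC, 3.49% and 0.159% with LP-DC, and 0.0251% and 0 with Sp-DC plus RA. Both Foxp3+ arrays lay below both Foxp3- arrays for 0 of 35 genes with Sp-DC and with LP-DC, against 15.3% and 14.5% of all genes. Both lay above both for 7 of 35 genes with Sp-DC, against 12.5% of all genes, and for 8 of 35 with LP-DC, against 14.7%. Aldoc, Pkm, Fam162a and Ddit4 were among them in both cultures, and 30 and 28 of the 35 differences were above 0. The medians were 0.07 with Sp-DC, 0.13 with LP-DC and -0.23 with Sp-DC plus RA unpaired, where the Foxp3- sort has 1 array and the median was 0.01 without the Foxp3+ array numbered 1. Of the pathway lists, Eno3, the muscle enolase, rose by 1.05 (adjusted p = 0.00315), and the lactate transporter Slc16a1 (-0.62, 0.0391) and Epas1, a relative of Hif1a (-0.62, 0.0344), fell in the paired mean over cultures. Hif1a gave 0.19 ± 0.10 (0.424) and Myc 0.37 ± 0.15 (0.286), and neither passed in any comparison. The CD8 T and NK cell list also differed between the sorts. It summed to 1623 to 2095 in Foxp3+ and 5235 to 6904 in Foxp3- cells with LP-DC. With Sp-DC it summed to 3983 to 5213 and 7507 to 7704. In the unpaired mean over cultures 2 of its 4 genes tested were lower in Foxp3+ cells. There all 13 cell cycle genes were below 0 (median -0.17), and none passed. The part of these in the values above was not tested.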

How the data were processed

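Intensity on a linear scale was deposited by the authors for 45101 probe sets of an Affymetrix mouse array on 17 arrays, computed by robust multi-array average (RMA), per the labels and the submitters' processing notes. The sources used here give no version and do not say which arrays were normalized as 1 set, and the number of arrays limits the precision. The log2 was taken with no pseudocount and no further normalization.

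Probe sets were named from the platform annotation by gene identifier: 34958 name 1 gene, 932 several and 9211 none, and the last 2 kinds were left out. The probe set brightest on average stands for a gene. Gapdh is read from its 3' control probe set. A gene was tested where 2 or more arrays of the experiment exceeded their median: 12163 in the memory experiment (36 members), 11940 in the co-culture (35 members, without Slc16a3) and 11537 in both. The chosen probe sets of Aldoa, Tpi1 and Pgk1 may cross-hybridize (x_at), and those of Slc2a3, Ak4 and Ndrg1 are shared between transcripts (s_at).

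Limma 3.58.1 (R 4.3.3) used a mean for each group, within an experiment or, for the difference between RA effects, over all 17 arrays, with empirical Bayes variances and p-values adjusted by Benjamini-Hochberg across every gene in the fit. The unpaired fit is the design, and the fit with the array number as a block (paired) is an alternative. Deviations of same-numbered arrays from their group means correlated at 0.45 to 0.76 over 10 pairs of co-culture groups and 0.66 to 0.94 for the 3 memory numbers, and on this basis, not from the labels, the numbers were taken to pair the arrays. Both fits were tested on simulated data. Alternatives were other scalings, filters, probe set rules, variance models, a pseudocount of 32 and leaving out arrays.

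The members, their grouping by role and the 13 other lists were chosen with earlier results of these data known, as were the motifs. The naming rule gives all members that passed in either fit, levels for up to 8 of these per comparison and always Slc2a1, Hk2, Ldha, Pdk1 and Bnip3, and up to 4 passing genes of each other list with Hif1a and Myc.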

Additional observations from a re-analysis of the deposited data

Results flagged for a closer look

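The difference of the RA effect between memory cells and Foxp3+ co-culture cells, tested as a contrast over both experiments in the paired limma fit, passed for 5 genes. It was -2.36 for Ndrg1, -1.95 for Bnip3, -1.73 for Ddit4, -1.55 for Aldoc and -0.84 for Pdk1 on the log2 scale, each effect being lower in memory cells. With 1 array left out in turn, Aldoc, Ndrg1 and Ddit4 passed in all 10 fits, Bnip3 in 9 and Pdk1 in 2. Leaving out either memory array of a number gives the same paired fit, so these fits are not all distinct. The other probe sets of Ndrg1 ranged from -2.50 to 0.16, and that of Aldoc gave -0.74. Ndrg1, Bnip3 and Ddit4 lay high on the scale in Foxp3+ co-culture cells, as given above. In the unpaired fit none of the 5 passed, with adjusted p-values from 0.0597 for Ndrg1 to 1.00 for Pdk1.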

How the results depend on the processing

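No difference of a single called gene changed direction in the alternatives run for it, and no scaling moved the median of all genes by more than 0.1. The counts of genes passing moved, as did the calls over all genes, and the cause was not tested. Over all genes the unpaired 12 for RA in memory cells became 627 with the array number as a block and 8 with quantile normalization. It became 14 with the mean of all probe sets and 82 with 1 fit over all arrays. The paired 172 for LP-DC over Sp-DC in Foxp3+ cells became 106 with centred arrays and 36 with the mean of all probe sets. The counts that follow are of the list. For RA in memory cells the unpaired count of 2 became 25 with the array number as a block, 1 with quantile normalization, 1 with the mean of all probe sets, 4 with 1 fit over all arrays, 0 to 1 with 1 array left out and 11 with both arrays numbered 3 left out. The paired count of 25 became 10 with both left out and ran from 10 to 24 with 1 left out. For LP-DC over Sp-DC the block raised 0 to 4 in Foxp3+ and 2 in Foxp3- cells, and for LP-DC over Sp-DC plus RA to 1. The paired 4 became 1 with centred arrays, 2 with the log2 of the value plus 32, 0 with the mean of all probe sets, 7 with 1 fit over all arrays and 0 to 6 with 1 array left out. The paired 2 became 1, 0, 7 and 0 to 1 under the last 4 of these, and the paired 1 became 2 with 1 fit over all arrays and 0 to 3 with 1 array left out. RA in Foxp3+ cells gave 1 gene (paired, 1 fit over all arrays), and the mean Foxp3 difference 0 to 1 (paired, 1 array left out). For the difference of RA effects the unpaired 0 became 5 with the block, 1 with quantile normalization, 1 with no filter, 1 with both memory arrays numbered 3 left out and 0 to 1 with 1 array left out, and the paired 5 became 3 to 5. The median Foxp3 difference with Sp-DC plus RA turned from -0.23 to 0.01 without the RA Foxp3+ array numbered 1 and was -0.43 without that numbered 2. Where 1 array was left of a group, its spread was taken to be that of the others. The block changed no other call on a count. Signal limits Slc16a3 and Car9, which lie near the array median, and Pgk1, near the top of the scale. In memory cells it also limits P4ha2 and, on arrays numbered 1 and 2, P4ha1, which lie near the median there. P4ha2 read 8.01 to 11.17 in the co-culture, well above the median. Ldha and, in the co-culture, Ndrg1, Ddit4 and Bnip3 were among other genes high on the scale.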

Other observations

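Other parts of energy metabolism and growth are values for comparison. With RA in memory cells 1 of 20 tested genes of the tricarboxylic acid cycle and pyruvate entry fell in the paired fit, Pcx, the pyruvate carboxylase that refills the cycle (-0.57 ± 0.14, adjusted p = 0.0479), and the median was -0.03. None of 6 genes of the pentose phosphate pathway passed in the paired or the unpaired fit (1 at an unadjusted p under 0.05 paired, 0 unpaired; median -0.05), none of 18 growth regulators of glycolysis (2 and 0; median 0.04), none of 13 cell cycle genes (2 and 0; median 0.05) and none of 9 housekeeping genes (2 and 0; median 0.02). With LP-DC in place of Sp-DC, 12 of the 17 other hypoxia-inducible genes had differences below 0 in Foxp3+ cells (median -0.26) and 16 of 17 in Foxp3- cells (median -0.38). None of them passed in limma's paired or unpaired fit (6 at an unadjusted p under 0.05 in each for Foxp3+ cells, 7 paired and 5 unpaired for Foxp3- cells). In Foxp3+ cells Selenbp1 fell by 1.57 with LP-DC against Sp-DC plus RA (adjusted p = 0.0396 paired).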
